A study of Arabidopsis thaliana with 12 samples.

Results

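The mitochondrial genome of Arabidopsis thaliana was examined through 146 loci of the deposited expression table, those whose gene code begins with ATMG, out of 33602 loci in all. Plant mitochondrial DNA encodes a small set of subunits of the respiratory chain and of ATP synthase, factors for cytochrome c maturation, ribosomal proteins, ribosomal and transfer RNAs, and many open reading frames without a known product. Its transcripts are made by nucleus-encoded polymerases, processed and edited inside the organelle, and translated there by mitochondrial ribosomes. In plant mitochondria a poly(A) tail marks a transcript for decay, so most stable mitochondrial RNA lacks one. Nonsense-mediated decay (NMD), the pathway impaired in this study, acts in the cytosol on mRNAs that are being translated.

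Whole seedlings of accession Columbia, 11 days old, had grown under continuous light on medium with 2% sucrose. The groups were lba1, with a point mutation in UPF1, the RNA helicase at the core of NMD; upf3-1, an insertion allele of UPF3, a partner of UPF1; lba1 upf3-1, with both mutations; and untreated wild type. A further pair of groups, both wild type, was kept for 4 h in liquid medium with cycloheximide at 10 µg/ml or in the same medium without it (mock). Cycloheximide stops translation on cytosolic ribosomes, while mitochondrial ribosomes are insensitive to it. Each group had 2 libraries, but the table holds 1 column per group, in RPKM, the reads of a locus divided by its length and by the size of the column's library. No spread between replicates can therefore be given, and no difference below has a replicate check or a p-value.

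Library preparation selected poly(A)-tailed RNA and left the transcribed strand unmarked. Implied depth was 82.9 to 91.4 M reads per column, so that a locus of 1 kb at 5 RPKM would rest on 414 to 457 reads. The upf3-1 and lba1 upf3-1 columns had UPF3 levels of 4.95 and 4.82 RPKM, and wild type 13.1, whereas the UPF1 transcript, at 24.0 RPKM in lba1 against 20.7 in wild type, does not check a point mutation. RBCS1A and LHCB1.1, which mark leaf tissue, were at 289.6 and 89.2 RPKM in lba1 upf3-1, against 9500 and 1623 in wild type. CASP1 and EXPA7, which mark root tissue, were at 0.793 and 0.157 RPKM in lba1 upf3-1, against 6.26 and 3.10 in wild type. The lba1 upf3-1 and wild-type columns thus differed in markers of both organs, and the part of this difference in the mitochondrial values was not tested. In such whole-seedling RNA, fewer cells of a type and less RNA per cell cannot be told apart.

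Most of the mitochondria-encoded loci were scarcely sampled. The median locus had a mean of 0.387 RPKM over the columns, 82 loci had a mean above 0 but under 0.5, and 2 were at 0 in every column. A mean of at least 0.5 RPKM was reached by 62 loci and a mean of at least 5 by 9. The reference annotation carries no ATMG codes of its own, but its notes on nuclear loci pair 53 of the 146 with a nuclear copy and give 24 of these a product. The other 93 are given here by code alone, and a missing note does not mean a missing product. The mitochondrial genome of the reference carries 3 ribosomal RNA and 18 transfer RNA names, and the notes place no locus in either class. Loci of both classes may thus be among those without a note, and the sums below may include them.

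Summed over the 146 loci, mitochondrial RNA came to 437.7 RPKM for lba1, 272.7 for upf3-1 and 701.1 for lba1 upf3-1, against 233.1 for wild type. Of all RPKM in a column, these sums made up 0.0942% in lba1, 0.0568% in upf3-1 and 0.153% in lba1 upf3-1, compared with 0.0499% in wild type. Relative to wild type the sum was 1.88 times as high in lba1, 1.17 times in upf3-1 and 3.01 times in lba1 upf3-1. With cycloheximide the sum was 262.7 RPKM, against 382.0 in mock, a ratio of 0.688. Mock, in turn, was at 1.64 times the level of untreated wild type. The order from the highest sum was thus lba1 upf3-1, lba1, mock, upf3-1, cycloheximide and wild type. Neighbours in that order cannot be separated by a spread over samples, since there is none.

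Other RNAs that poly(A) enrichment samples poorly were set beside these sums. The 4 cytosolic ribosomal RNA loci summed to 3806 RPKM in lba1, 2723 in upf3-1 and 4023 in lba1 upf3-1, compared with 2420 in wild type, ratios of 1.57, 1.13 and 1.66. For the 133 chloroplast-encoded loci the sums were 2895, 1998 and 492.5 RPKM in these mutants, against 1701 in wild type, ratios of 1.70, 1.17 and 0.290. In lba1 and upf3-1 the mitochondrial, chloroplast and ribosomal sums therefore stood at similar ratios to wild type. In lba1 upf3-1 they stood apart, with the mitochondrial sum higher than wild type and the chloroplast sum lower. Mock against wild type gave 1.64 for mitochondrial, 1.61 for chloroplast and 1.69 for ribosomal RNA, and cycloheximide against mock gave 0.688, 0.738 and 0.556. Taken relative to the ribosomal RNA loci, a setting chosen after seeing the data, the log2 ratio of the mitochondrial sum to wild type was 0.26 in lba1, 0.056 in upf3-1 and 0.86 in lba1 upf3-1, where the deposited values gave 0.91, 0.23 and 1.59. On that basis mock came to −0.042 relative to wild type and cycloheximide to 0.31 relative to mock, each with its sign turned. The part of non-polyadenylated RNA carried into each library was not tested for these ratios.

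**Figure D1:**
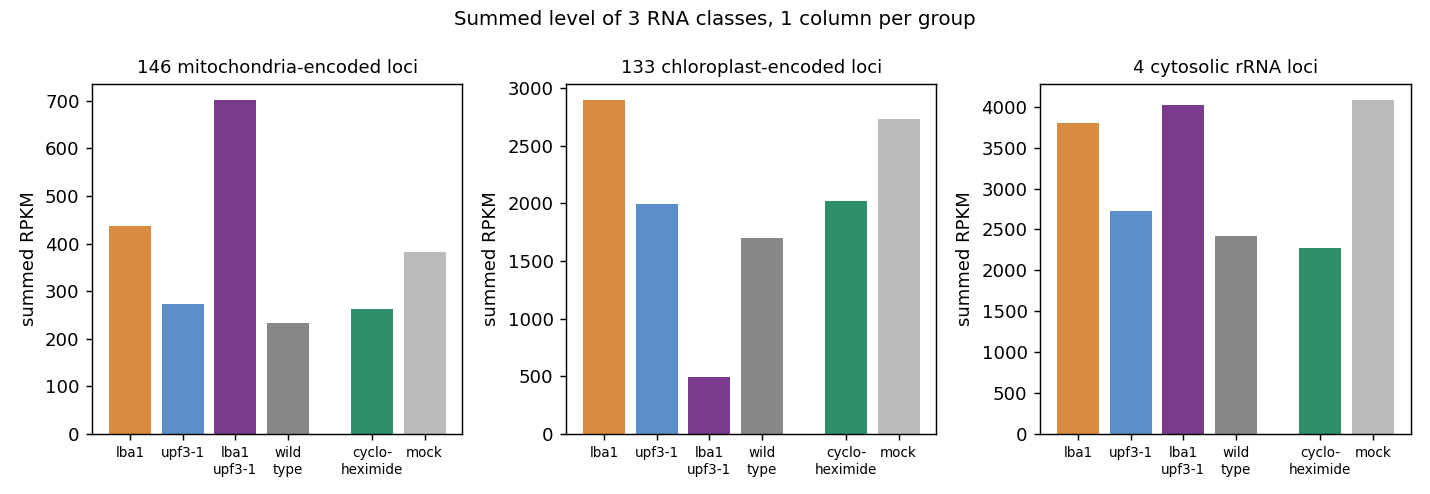
Summed RPKM (vertical axis, starting at 0 in each panel) of the 146 mitochondria-encoded, 133 chloroplast-encoded and 4 cytosolic ribosomal RNA loci, with 1 bar for the single column of each group and no error bar because there are no replicate columns. The lba1 upf3-1 bar is the highest of the mitochondrial panel, at 701.1 RPKM, and the lowest of the chloroplast panel, at 492.5 RPKM.

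A large share of the mitochondrial sum came from 3 loci without a name in the reference notes, ATMG00030, ATMG00020 and ATMG01390. Together they held 49.6% of the sum in lba1, 55.6% in upf3-1 and 66.5% in lba1 upf3-1, compared with 53.1% in wild type, and 66.3% with cycloheximide against 57.6% in mock. ATMG00030 was at 91.3 RPKM in lba1, 56.8 in upf3-1 and 210.3 in lba1 upf3-1, compared with 45.5 in wild type, and at 66.0 with cycloheximide against 79.0 in mock. ATMG00020 was at 72.2 RPKM in lba1, 53.5 in upf3-1 and 137.2 in lba1 upf3-1, compared with 38.1 in wild type, and at 58.0 with cycloheximide against 76.1 in mock. ATMG01390 was at 53.6, 41.4 and 118.8 RPKM in lba1, upf3-1 and lba1 upf3-1, against 40.2 in wild type, and at 50.2 with cycloheximide against 65.1 in mock. In each of these 3 loci the lba1 upf3-1 column was the highest of the 6 and wild type the lowest.

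Without them, the remaining 143 loci summed to 220.7 RPKM in lba1, 121.1 in upf3-1 and 234.8 in lba1 upf3-1, compared with 109.3 in wild type. The ratio of lba1 upf3-1 to wild type then came to 2.15, close to that of lba1, at 2.02. For cycloheximide the remaining loci gave 88.5 RPKM against 161.8 in mock, a ratio of 0.547. The gap between lba1 upf3-1 and lba1 in the full sum, 1.60 times, was 1.06 times without the 3 loci.

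Single loci were compared as log2(RPKM + 0.5), which makes differences of low loci look smaller, and a locus is called higher or lower where columns differ by at least 2-fold on it, a rule of size. The comparisons with wild type share its 1 column, and those of lba1 upf3-1 share that column. Among the 9 loci with a mean of at least 5 RPKM, 3 were higher and 0 lower in lba1, where 4.77% and 1.93% of the 14079 genes above that mean were. With a pseudocount of 0.1 in place of 0.5, 5 of the 9 were higher in lba1, and the share over all genes was not computed at that setting. In upf3-1 there were 0 of either kind, with 3.81% and 0.547% over all such genes. In lba1 upf3-1, 3 were higher and 1 lower, where 22.1% and 21.2% of all such genes were. Their medians were 0.97 in lba1, 0.14 in upf3-1 and 0.49 in lba1 upf3-1, beside 0.08, 0.05 and 0.12 for the 14079 genes.

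In lba1 upf3-1 the 3 most abundant loci were the ones called higher, ATMG00030 by 2.20, ATMG00020 by 1.83 and ATMG01390 by 1.55 on the log2 scale. In lba1 they differed from wild type by 0.997, 0.91 and 0.41, none called by the size rule, and in upf3-1 by 0.32, 0.48 and 0.04. ATMG00030 missed the call in lba1 only through the pseudocount, at 91.27 RPKM against 45.49 in wild type. The next in abundance, ATMG01380 and ATMG01370, had a different profile, with their highest value in lba1. ATMG01380 was at 26.3 RPKM in lba1, 12.1 in upf3-1 and 16.1 in lba1 upf3-1, compared with 11.0 in wild type, while ATMG01370 was at 17.2 RPKM in lba1, 7.23 in upf3-1 and 9.68 in lba1 upf3-1, compared with 6.77 in wild type. Both were called higher in lba1, by 1.22 and 1.28, and lay within 2-fold of wild type in lba1 upf3-1, by 0.53 and 0.49. With cycloheximide they were at 7.42 and 4.21 RPKM, against 17.2 and 11.9 in mock, the 2 lower calls of that comparison among the 9 loci.

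The other abundant loci have products in the notes. ATMG01080, noted as subunit 9 of ATP synthase, part of its membrane ring, was at 13.4 RPKM in lba1, 8.40 in upf3-1 and 6.91 in lba1 upf3-1, compared with 7.08 in wild type. ATMG00980, noted as ribosomal protein S12 of the small ribosomal subunit, was at 10.9, 5.88 and 6.0 RPKM in the same mutants, against 5.05 in wild type. ATMG00990, noted as NADH dehydrogenase 3, a subunit of the membrane arm of complex I, was at 8.95 RPKM in lba1, 4.23 in upf3-1 and 3.68 in lba1 upf3-1, compared with 4.33 in wild type. In these 3 loci the lba1 column was the highest of the 6, and ATMG00980 was the one called higher, at 1.04. ATMG00990, at 0.97, missed the call only through the pseudocount. In lba1 upf3-1 they lay within 2-fold of wild type, at −0.03, 0.23 and −0.21, and ATMG00990 was lower than in lba1 by the size rule, at −1.18. With cycloheximide they were at 6.52, 4.09 and 3.47 RPKM, against 9.09, 7.86 and 6.20 in mock, within 2-fold in each case.

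ATMG00280 stood apart from the other abundant loci. Its note names the catalytic domain of the large chain of Rubisco, the carbon-fixing enzyme of the chloroplast. It was at 1.74 RPKM in lba1 upf3-1, 12.5 in lba1 and 7.20 in upf3-1, against 8.58 in wild type, and at 12.3 with cycloheximide against 10.0 in mock. The lba1 upf3-1 value was the lowest of the 6, with a log2 difference of −2.02 from wild type, and it was the 1 lower call among the 9 loci. The nuclear copy noted for this locus, AT2G07732, aligned to the mitochondrial genome over 100% of its length and also to the chloroplast rbcL gene over 76.8% of it, at 96.9% identity. All 43 chloroplast-encoded loci with a mean of at least 5 RPKM were lower in lba1 upf3-1, with a median of −1.71, beside 21.2% of the 14079 genes. How reads from the similar chloroplast and mitochondrial stretches were assigned is not given in the sources used here, and their part in the ATMG00280 values was not tested.

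**Figure D2:**
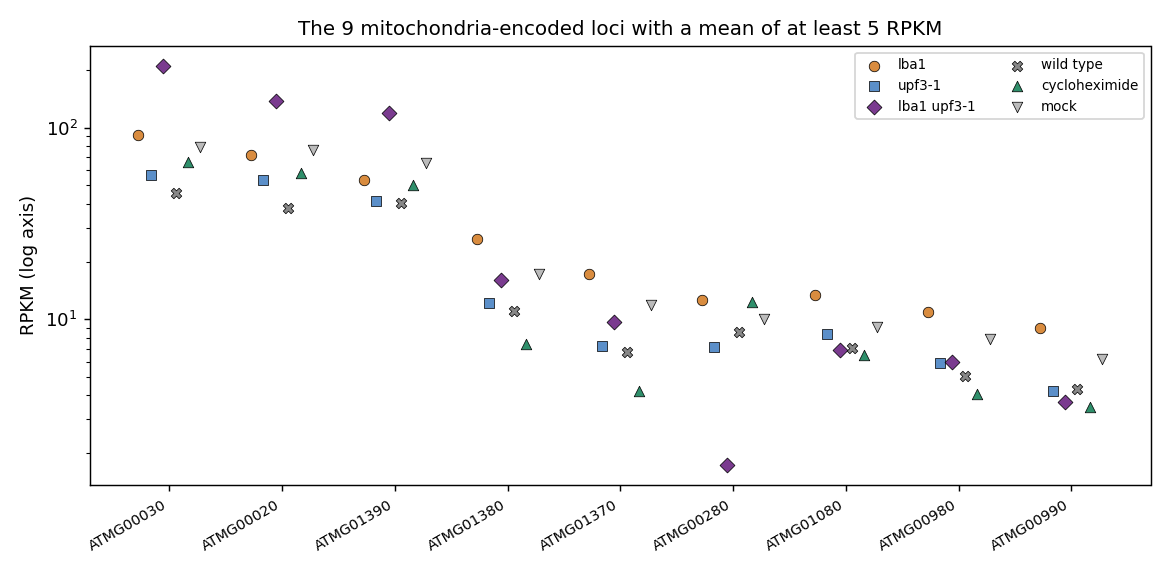
RPKM (vertical log axis) of the 9 mitochondria-encoded loci with a mean of at least 5 RPKM, ordered by mean, with 1 point for the single column of each group. The lba1 upf3-1 point is the highest for ATMG00030, ATMG00020 and ATMG01390 and the lowest for ATMG00280, at 1.74 RPKM, while the lba1 point is the highest for each of the 6 others, ATMG00280 included.

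The wider set took in the 62 loci with a mean of at least 0.5 RPKM, most of which lay above wild type in lba1 and lba1 upf3-1. In lba1, 60 of them lay above wild type, 11 being higher and 0 lower, and 5.31% and 1.58% of the 21333 loci above that mean were. In upf3-1, 44 of 62 lay above wild type and 0 passed 2-fold either way, where 3.46% and 0.741% of all such loci did. In lba1 upf3-1, 55 lay above wild type, 29 being higher and 3 lower, beside 21.6% and 22.0% over all such loci. Their medians were 0.70, 0.16 and 0.97 on the log2 scale, beside 0.12, 0.04 and 0.06 for the 21333 loci. A locus can pass the minimum through the column in which it is high, so the counts without any minimum are given too. Over all 146 loci, 11 were higher and 0 lower in lba1, where 3.46% and 1.02% of the whole table were. In lba1 upf3-1, 41 were higher and 3 lower over all 146, beside 14.7% and 14.3% of the whole table, and in upf3-1 0 of either kind, beside 2.25% and 0.482%. The median RPKM ratio to wild type of the 62 loci was 2.02 in lba1, 1.18 in upf3-1 and 2.62 in lba1 upf3-1.

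Of these 62 loci, 40 had their highest value in lba1 upf3-1, 18 in lba1, 3 in mock and 1 in wild type. The lowest value fell in cycloheximide for 37, in wild type for 16, in upf3-1 for 7 and in lba1 upf3-1 for 2. The same tally was not made over all loci above that mean, so it is not a trait of the mitochondrial loci. Of all such loci, 21.6% were at least 2-fold higher in lba1 upf3-1 than in wild type, and 37.4% lower with cycloheximide than in mock. Set directly against lba1, lba1 upf3-1 had 10 loci higher and 4 lower, beside 16.8% and 24.2% over all such loci, with 40 of 62 above lba1 and a median of 0.26. Compared with upf3-1 it had 28 higher and 1 lower, beside 16.5% and 20.6%, with 52 above upf3-1 and a median of 0.94. Among the 9 abundant loci, 2 were higher and 2 lower than in lba1, beside 17.7% and 22.1% of the 14079 genes, and 3 were higher and 1 lower than in upf3-1, beside 16.6% and 20.9%. The median of the 9 relative to lba1 was −0.79, opposite in sign to that of the 62 loci. Over all 146 loci, 11 were higher and 4 lower than in lba1, beside 11.5% and 15.8% of the whole table, and 36 were higher and 1 lower than in upf3-1, beside 11.3% and 13.3%.

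In mock against untreated wild type, 58 of the 62 loci lay above wild type, 2 were higher and 0 lower, and 12.1% and 10.8% of all such loci were. Their median was 0.41, beside 0.07 for all such loci. None of the 9 abundant loci passed 2-fold, beside 14.2% and 11.9% of the 14079 genes, and over all 146 loci the counts were again 2 and 0, beside 7.9% and 6.95% of the whole table. The pair was ATMG00100 and ATMG01130, named here after their values were seen. ATMG01130 was at 2.09 RPKM in mock, against 0.759 in wild type. ATMG00100 was at 0.940 RPKM in mock, against 0.165 in wild type, on about 6 reads and 1 read, and the 95% counting interval of its ratio, 0.691 to 261.9, included 1.

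With cycloheximide against mock, 1 of the 62 loci lay above mock, 0 were higher and 11 lower, and 13.4% and 37.4% of all such loci were. Their median was −0.56, beside −0.63 for all such loci. Over all 146 loci, 0 were higher and 13 lower, beside 9.24% and 24.0% of the whole table. Among the 9 abundant loci the median was −0.45, with 2 lower calls, beside −0.81 for the 14079 genes, of which 13.3% were higher and 44.1% lower. The lower level of the loci with cycloheximide is thus one on the RPKM scale, where most genes were lower too. When the columns were scaled to the same median of nuclear genes, the cycloheximide column was raised by 0.64 and the mock column lowered by 0.13 on the log2 scale, and the median of the 9 loci turned to 0.28, above mock. With quantile normalization it stayed below mock, at −0.19. Under median scaling the medians of the 9 loci in the other 6 comparisons kept their sign, as did the summed level in lba1, upf3-1, lba1 upf3-1 and mock relative to wild type. The summed level with cycloheximide turned under median scaling, to a log2 ratio of 0.23 over mock.

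**Figure D3:**
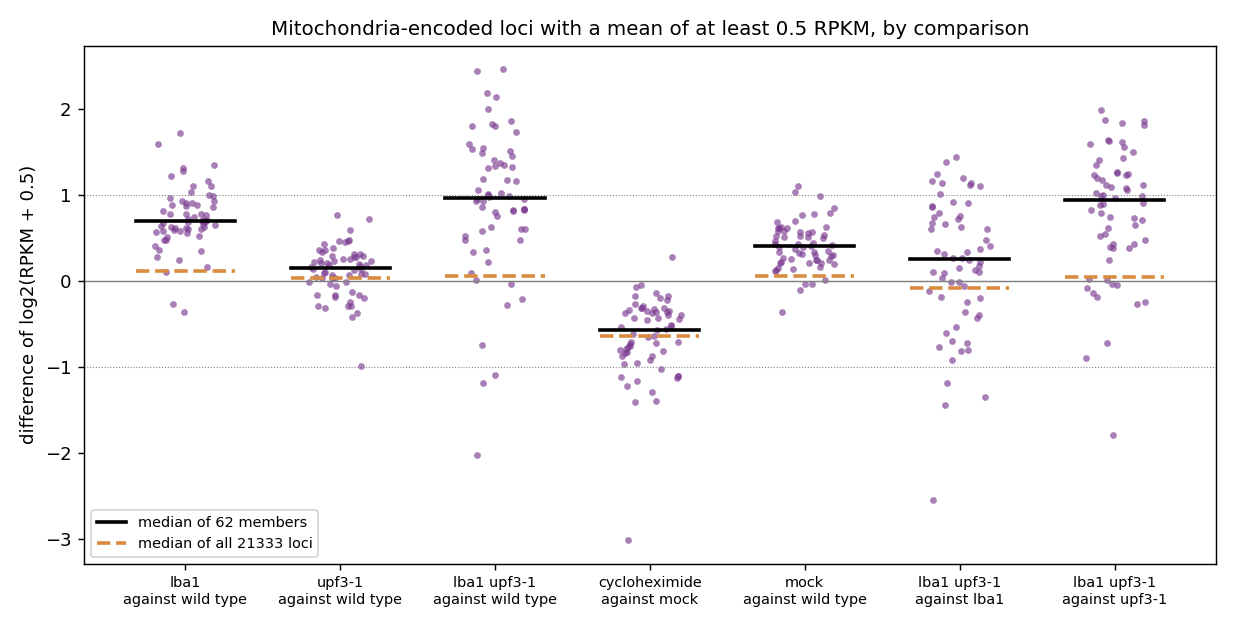
Difference of log2(RPKM + 0.5) (vertical axis) for the 62 mitochondria-encoded loci with a mean of at least 0.5 RPKM in each of 7 comparisons, with 1 point per locus, a black line at their median, a dashed line at the median of all 21333 loci above that mean and dotted lines at 2-fold. The median of the 62 is 0.70 in lba1, 0.16 in upf3-1 and 0.97 in lba1 upf3-1, and with cycloheximide, −0.56, it lies near the −0.63 of all loci, a direction that turns for the abundant loci under median scaling.

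The 24 loci with a named product were then taken by role. Of the 3 noted for complex I, which passes electrons from NADH into the respiratory chain, ATMG01275 (NADH dehydrogenase 1A) was at 1.88 RPKM in lba1 upf3-1, 0.593 in lba1 and 0.257 in upf3-1, against 0.345 in wild type. The implied counts of ATMG01275 were 64 reads in lba1 upf3-1 and 11 in wild type, a ratio of 5.41 with a 95% counting interval of 2.83 to 11.4, which covers counting error only. ATMG01320 (NADH dehydrogenase 2B) stayed at or under 0.335 RPKM in every column. In lba1 upf3-1 the log2 difference from wild type was 1.49 for ATMG01275, 0.54 for ATMG01320 and −0.21 for ATMG00990. ATMG01330, chosen after its values were seen, has no product in the notes, but its nuclear copy aligned to the nad2 region of the mitochondrial genome. It was at 1.97 RPKM in lba1, 1.38 in upf3-1 and 1.21 in lba1 upf3-1, compared with 0.603 in wild type.

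Complex III, which hands electrons to cytochrome c, was represented by ATMG00220 (apocytochrome b) and ATMG00590 (noted as a cytochrome b/b6 protein, although its nuclear copy aligned to the nad4 region of the mitochondrial genome). ATMG00220 was at 3.25 RPKM in lba1 upf3-1, 1.49 in lba1 and 0.908 in upf3-1, against 0.742 in wild type, a log2 difference of 1.59 in lba1 upf3-1. ATMG00590 was at 3.43 RPKM in lba1 upf3-1, 2.86 in lba1 and 1.59 in upf3-1, against 1.25 in wild type. Both were higher by the size rule in lba1 upf3-1, as were 21.6% of the 21333 loci.

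Complex IV, the terminal oxidase, was represented among the noted loci by ATMG00730 (cytochrome c oxidase subunit 3) and ATMG01280 (subunit II-like transmembrane domain). The nuclear copy of ATMG00730 aligned to the cox3 region of the mitochondrial genome, whereas that of ATMG01280 overlapped no named gene there. ATMG00730 was at 3.83 RPKM in lba1 upf3-1, 1.15 in lba1 and 0.705 in upf3-1, against 0.479 in wild type, 2.15 higher on the log2 scale. ATMG01280 was at 2.33 RPKM in lba1 upf3-1, 1.13 in lba1 and 0.681 in upf3-1, against 0.487 in wild type, a log2 difference of 1.52. ATMG00730 had one of the largest differences from lba1 as well, at 1.39. With cycloheximide ATMG00730 was at 0.659 RPKM, against 0.712 in mock, and ATMG01280 at 0.299 against 0.926.

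Among the 5 loci noted for ATP synthase, which makes ATP from the proton gradient, 2 were higher in lba1 upf3-1 and 0 lower, beside 21.6% and 22.0% of the 21333 loci. ATMG01190 (subunit 1, of the catalytic head) was at 11.5 RPKM in lba1 upf3-1, 5.04 in lba1 and 3.37 in upf3-1, against 2.49 in wild type, a log2 difference of 2.00. ATMG00410 (subunit 6-1, of the membrane part) was at 2.26 RPKM in lba1 upf3-1, 1.23 in lba1 and 0.720 in upf3-1, against 0.599 in wild type, a difference of 1.33. The other loci noted for the membrane part had their highest value in lba1. ATMG00480 (subunit 8) was at 5.89 RPKM in lba1, 2.62 in upf3-1 and 3.73 in lba1 upf3-1, compared with 1.99 in wild type, and was the locus of this group past 2-fold in lba1, at 1.36. ATMG01090, also noted as ATP synthase 9, was at 2.95, 2.57 and 2.42 RPKM in the same mutants, against 1.76 in wild type. The nuclear copy of ATMG01090 overlapped no named gene of the mitochondrial genome, whereas that of ATMG01080 aligned to atp9. Loci noted for 1 enzyme thus had different orders of the columns, with ATMG01190 and ATMG00410 highest in lba1 upf3-1, and ATMG00480, ATMG01080 and ATMG01090 highest in lba1.

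The 4 loci noted for ribosomal proteins lay above wild type in lba1 upf3-1, and 2 of them were higher by the size rule, beside 21.6% of the 21333 loci. ATMG00210 (L5, of the large subunit) was at 4.98 RPKM in lba1 upf3-1, 2.51 in lba1 and 1.29 in upf3-1, against 1.07 in wild type, a log2 difference of 1.80. ATMG00290 (S4, of the small subunit) was at 1.96 RPKM in lba1 upf3-1, 0.960 in lba1 and 0.407 in upf3-1, against 0.348 in wild type, a difference of 1.54. ATMG01270 (S7, of the small subunit) was at 1.17 RPKM in lba1 upf3-1, against 0.354 in wild type, on about 46 and 13 reads, a ratio of 3.29 with a 95% counting interval of 1.75 to 6.64. The pseudocount of 0.5 brought its log2 difference to 0.96, so it was not called. ATMG00980 (S12), described above, differed from wild type by 0.23 in lba1 upf3-1.

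The 3 loci noted for cytochrome c maturation, the attachment of haem to that carrier, were low. ATMG00180 was at 1.04 RPKM in lba1 upf3-1, 1.16 in lba1 and 0.639 in upf3-1, against 0.515 in wild type. ATMG00900 and ATMG00960 reached at most 0.589 and 0.631 RPKM, both in lba1 upf3-1. Of the remaining named products, ATMG00610, noted as a putative membrane lipoprotein, was at 2.38 RPKM in lba1 upf3-1, against 0.326 in wild type, a log2 difference of 1.80. ATMG00370, noted as a Ycf1 protein, was at 2.55 RPKM in lba1 upf3-1, 2.68 in lba1 and 1.68 in upf3-1, against 1.22 in wild type, although its nuclear copy aligned to chloroplast ycf1 over 92.5% of its length at 97.1% identity. ATMG01110, noted as a mitovirus RNA polymerase, stayed at or under 0.256 RPKM, and ATMG00560, noted as a nucleic acid-binding protein, at or under 0.703 RPKM. The nuclear copy of ATMG00560 aligned to the region of rpl2, a ribosomal protein gene. ATMG00560 differed from wild type by 0.85 in lba1 upf3-1 on the log2 scale.

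Most loci to which the notes give no product also lay above wild type in lba1 and in lba1 upf3-1. Of the 29 whose note gives no product, 24 lay above wild type in lba1, 13 in upf3-1 and 26 in lba1 upf3-1, with medians of 0.30, −0.01 and 0.60 over all 29. Of the 93 without any note, 75 lay above wild type in lba1, 53 in upf3-1 and 82 in lba1 upf3-1, with medians of 0.41, 0.05 and 0.59. Over the whole table, with no minimum, the median was 0 in each of these comparisons. A mean of 0.5 RPKM was reached by 5 of the 29 and 38 of the 93.

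**Figure D4:**
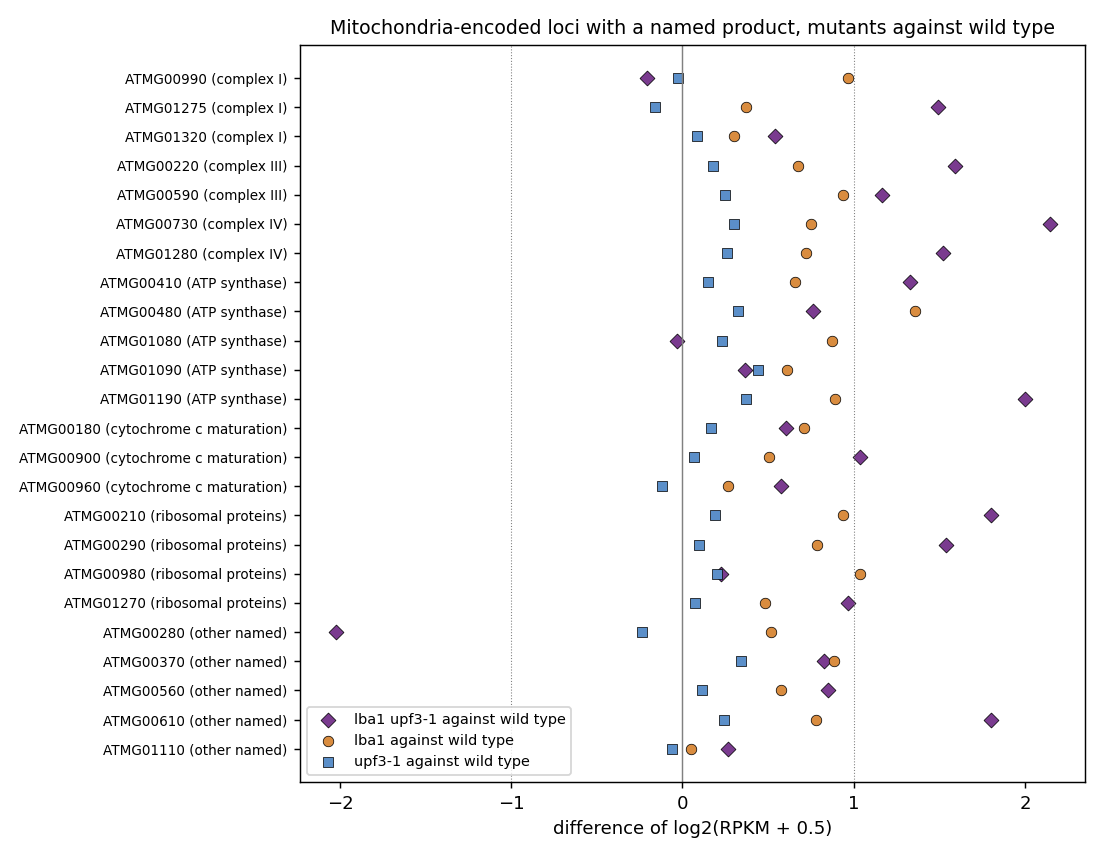
Difference of log2(RPKM + 0.5) from wild type (horizontal axis) of the 24 mitochondria-encoded loci with a named product, in lba1 upf3-1, lba1 and upf3-1, with 1 point per locus and group, dotted lines at 2-fold and the class of each locus in its label. The lba1 upf3-1 points run from −2.02 for ATMG00280 to 2.15 for ATMG00730, and the upf3-1 points lie within 2-fold of wild type.

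Among the 62 loci, ATMG00690 and ATMG01360, which have no note, had the largest differences of lba1 upf3-1 from wild type. ATMG00160, also without a note, came after ATMG00030, ATMG00730 and ATMG01190. ATMG00690, ATMG01360, ATMG00160 and the loci in the descriptions of few reads that follow are named after their values were seen. ATMG00690 was at 10.1 RPKM in lba1 upf3-1, 4.27 in lba1 and 2.40 in upf3-1, against 1.42 in wild type, a log2 difference of 2.47. ATMG01360 was at 11.1 RPKM in lba1 upf3-1, 3.77 in lba1 and 2.41 in upf3-1, against 1.62 in wild type, a difference of 2.45. ATMG00160 was at 4.86 RPKM in lba1 upf3-1, 1.76 in lba1 and 1.02 in upf3-1, against 0.975 in wild type, a difference of 1.86. These loci were also higher in lba1 upf3-1 than in lba1 by the size rule, by 1.15, 1.44 and 1.25.

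The other lower calls in lba1 upf3-1 rested on few reads. ATMG00330 was at 0.639 RPKM in lba1 upf3-1, against 1.92 in wild type, on about 5 and 14 reads. ATMG00780 was at 0.511 RPKM in lba1 upf3-1, against 1.78 in wild type, on about 4 and 13 reads. The 95% counting intervals of their ratios, 0.0936 to 0.976 for ATMG00330 and 0.0680 to 0.926 for ATMG00780, came close to 1. These loci had equal values in upf3-1, at 1.37 RPKM, and in mock, at 2.21 RPKM.

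In lba1 the largest difference from wild type belonged to ATMG00100, at 1.73, followed by ATMG00700, at 1.60. ATMG00100 was at 1.71 RPKM in lba1, against 0.165 in wild type, and ATMG00700 at 2.02 against 0.329. The reads behind ATMG00100 were about 11 in lba1 and 1 in wild type, a ratio of 10.4 with a counting interval of 1.5 to 445.4. Those behind ATMG00700 were about 13 in lba1 and 2 in wild type, a ratio of 6.12 with an interval of 1.38 to 55.8. The size of either ratio is therefore poorly known. With cycloheximide, ATMG00665 was listed at 0, against 3.53 RPKM in mock, where that value rested on about 7 reads, and its difference of −3.01 depends on the pseudocount.

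Counts of reads could be inferred for 51 of the 146 loci, from low values that were whole multiples of a single step. Of these, 44 rested on under 10 reads in wild type, with a median of 3 and a range of 1 to 21, against a median of 11 in lba1 upf3-1. The same step implied a length for each of the 51, with a median of 321 bases and a range of 23 to 747. It came to 73 bases for ATMG00100 and ATMG00700, 88 for ATMG00330 and ATMG00780, and 23 for ATMG00665. For a locus of 1 kb, 3 reads correspond to 0.0328 to 0.0362 RPKM, depending on the column, which is the level that a value of 0 allows at that length. Every implied length was under 1 kb, and at a shorter length that level is higher. The intervals and floors cover counting error only.

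A nearly identical copy of mitochondrial DNA lies in chromosome 2 of accession Columbia, and the table has separate values for it. The notes gave 55 pairs of a mitochondrial and a nuclear locus. Each nuclear locus aligned to the reference mitochondrial genome over its whole length, 28 of them at 100% identity and the least similar at 99.0%. For the 24 pairs whose mitochondrial locus had a mean of at least 0.5 RPKM, the nuclear mean was 0.102 to 1.66 times the mitochondrial one, with a median of 0.999, and 14 pairs lay between 0.8 and 1.25. The lba1 upf3-1 differences of both loci lay within 0.5 of each other on the log2 scale in 23 of the 24 pairs, with a median gap of 0.10. Nuclear and mitochondrial reads of such loci cannot be told apart in this table, and the levels above may hold reads from either copy.

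Single pairs show how close the copies were. AT2G07675, the copy of ATMG00980, was at 11.3 RPKM in lba1, 6.05 in upf3-1 and 6.06 in lba1 upf3-1, compared with 5.25 in wild type, each close to its mitochondrial counterpart. AT2G07687, the copy of ATMG00730, was at 1.43 RPKM in lba1, 0.842 in upf3-1 and 4.81 in lba1 upf3-1, compared with 0.610 in wild type. At the low end, AT2G07732 was at 1.30 RPKM in lba1, 0.674 in upf3-1 and 0.299 in lba1 upf3-1, compared with 0.863 in wild type, with a mean that was 0.102 times that of ATMG00280. AT2G07798, the copy of ATMG01220, had a mean ratio of 0.137, and both are named after their values were seen. Over the 145 nuclear loci from AT2G07660 to AT2G07850, which also include ordinary nuclear genes, the sum was 138.9 RPKM in lba1, 80.2 in upf3-1 and 152.7 in lba1 upf3-1, compared with 78.1 in wild type. It was 61.3 RPKM with cycloheximide, against 102.7 in mock.

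**Figure D5:**
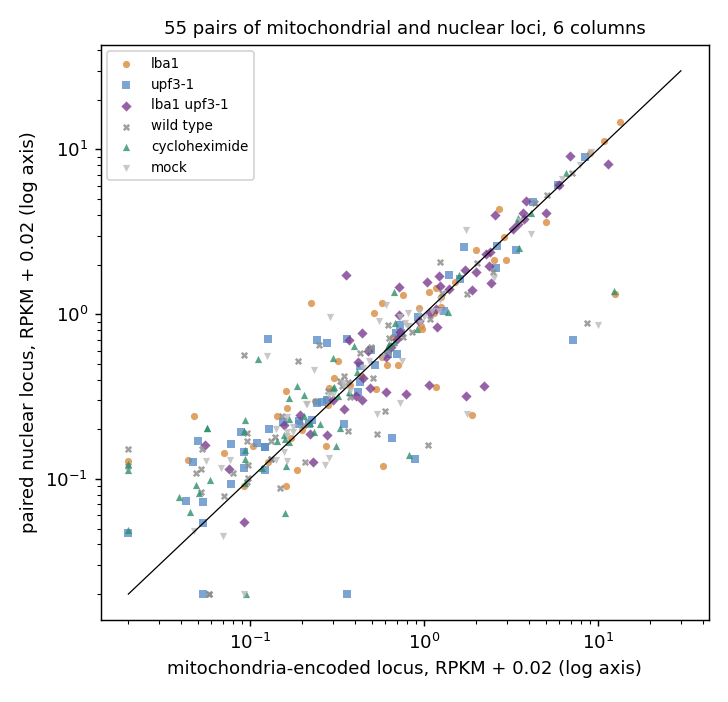
RPKM + 0.02 of mitochondria-encoded loci (horizontal log axis) and of their noted nuclear copies (vertical log axis) in 55 pairs formed by 53 mitochondrial loci, with 1 point per pair and column and a line of equality. Most points at higher levels follow the line, while those of ATMG00280 and ATMG01220, whose copies had mean ratios of 0.102 and 0.137, lie well below it.

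Nuclear genes for mitochondrial functions were set beside the organelle's own. Of the 10 genes listed for mitochondrial RNA synthesis, processing and decay, 9 had a mean of at least 5 RPKM. The list includes RPOTp, which is a polymerase of chloroplasts. Its own differences, −0.18 in lba1 and −1.47 with cycloheximide, are the medians of the 9 in those comparisons. Of these 9, 0 were higher and 0 lower in lba1, beside 4.77% and 1.93% of the 14079 genes. In upf3-1 there were also 0 of either kind, beside 3.81% and 0.547%. The medians of the 9 were −0.18 in lba1 and −0.26 in upf3-1. In lba1 upf3-1 their median was −0.29, with 1 higher and 1 lower, which is no more than the 22.1% and 21.2% of the 14079 genes. RPOTmp, an RNA polymerase of mitochondria and chloroplasts, was at 11.5 RPKM in lba1 upf3-1, against 3.12 in wild type, and PRORP1, an organellar protein that cuts transfer RNA precursors, at 7.85 against 50.0. RPOTm, the polymerase of mitochondria alone, was at 12.5 RPKM in lba1 upf3-1, against 7.02 in wild type, a difference of 0.79. With cycloheximide 7 of the 9 were lower and 0 higher than in mock, with a median of −1.47, beside 44.1% and 13.3% of the 14079 genes and their median of −0.81.

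Of 15 nuclear genes for oxidative phosphorylation and alternative respiration, 14 had a mean of at least 5 RPKM. In lba1, 0 of the 14 lay above wild type, with a median of −0.30, beside a median of 0.08 for the 14079 genes. None passed 2-fold, where 4.77% of those genes were higher and 1.93% lower. In upf3-1, 0 passed 2-fold, beside 3.81% higher and 0.547% lower. The median of the 14 was −0.09, beside 0.05. In lba1 upf3-1, 5 were higher and 0 lower, with a median of 0.68, beside 22.1% and 21.2% of the 14079 genes and their median of 0.12. AOX1A, the alternative oxidase that bypasses complexes III and IV, was at 232.9 RPKM in lba1 upf3-1, against 35.1 in wild type. Its level was higher still in mock, at 373.8 RPKM, and with cycloheximide, at 726.1 RPKM. CYTC-2 and CYTC-1, which encode cytochrome c, were at 95.8 and 221.9 RPKM in lba1 upf3-1, against 19.2 and 67.4 in wild type. SDH1-1, a subunit of complex II, was at 182.2 RPKM in lba1 upf3-1, against 46.1 in wild type, and the Rieske protein gene AT5G13430 of complex III at 65.2 in lba1 upf3-1, against 29.4 in wild type. With cycloheximide 11 of the 14 were lower and 0 higher than in mock, with a median of −1.45, beside 44.1% and 13.3% of the 14079 genes and their median of −0.81. The mitochondria-encoded loci had medians of −0.45 (9 loci) and −0.56 (62 loci) in that comparison.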

How the data were processed

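RNA was sequenced in 12 libraries, 2 for each of 6 groups, per the labels. The authors deposited RPKM values with 3 decimals for 33602 loci, 1 column per group. Per the submitters' processing notes they used build TAIR10. How reads were aligned and counted, how those mapping to several places were treated and how libraries were pooled is not given in the sources used here.

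Members were all loci with codes starting with ATMG. Members and lists were chosen with earlier results of these data known. Differences of log2(RPKM + 0.5) were taken over the whole table, and a size rule of 2-fold stands in for a test. The planned limma fit needs replicate columns and was not run. Loci named by rule were those averaging at least 5 RPKM, the 10 highest by mean, those with an annotated class and the genes of the lists. Others are said to be chosen after their values were seen.

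Names came from notes on nuclear loci in the TAIR10.1 RefSeq annotation, whose organelle loci carry no ATMG codes. No coordinates or sequences were taken from it. Nuclear copies were aligned to its organelle genomes with blastn 2.17.0 (e-value 1e-10). Depth came from the steps between low values, up to 8 reads, of 623 transfer RNA loci, with 91.9% to 95.7% of values whole within 0.05 of a read. Steps in a member's own low values gave its implied reads, with settings adjusted after their output was seen. Among 939 nuclear loci so examined, 72 gave a length, 64 of them (88.9%) within 3% of the annotated one. The difference and step computations were tested on simulated data. Intervals are exact Clopper-Pearson at 95%. Python 3.11.15, numpy 2.4.6, pandas 2.3.3 and scipy 1.17.1 were used. Alternatives changed the pseudocount, the minimum, the scaling and the loci summed.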

Additional observations from a re-analysis of the deposited data

How the results depend on the processing

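Of 109 recomputed values, 78 stayed within a set band or, for a count, close to the main one, with no change of sign. The band was not the counting error of the values themselves. For medians it was the counting error of a single locus at 5 RPKM with the median implied length, 321 bases. For sums it treated all reads as lying on a locus of the shortest implied length, 23 bases, which makes the band wide. The other 31 moved, and the cause was not tested. With a pseudocount of 0.1, 5 of the 9 abundant loci passed 2-fold in lba1. Shares over all genes were not computed at that pseudocount or under the scalings below. With a minimum mean of 0.5 RPKM, 11 loci passed 2-fold in lba1, 32 in lba1 upf3-1, 11 with cycloheximide, 2 in mock, 14 in lba1 upf3-1 against lba1 and 29 against upf3-1, and the medians in lba1 upf3-1 came to 0.97 against wild type, 0.26 against lba1 and 0.94 against upf3-1. With no minimum, more loci are counted and these counts were 11, 44, 13, 2, 15 and 37, with medians of 0.44 in lba1, 0.25 in mock and 0.27 in lba1 upf3-1 against lba1. Counts at both minimums join higher and lower calls, whose shares over all loci are given with the comparisons above. The 44 in lba1 upf3-1 were 41 higher and 3 lower, beside 14.7% and 14.3% of the whole table. For cycloheximide against mock, the deposited values gave 0 of the 9 loci higher and 2 lower, and median scaling 1 higher and 0 lower. Median scaling also gave a median of 0.28 and a log2 ratio of sums of 0.23, and quantile normalization 0 loci past 2-fold. Without ATMG00030 the log2 ratio of sums of lba1 upf3-1 to wild type was 1.39. Chosen after seeing the data, leaving out the 3 highest loci gave 1.1 in lba1 upf3-1 and −0.87 with cycloheximide. Also chosen then, sums relative to cytosolic ribosomal RNA gave 0.26 in lba1, 0.056 in upf3-1, 0.86 in lba1 upf3-1, 0.31 with cycloheximide and −0.042 in mock, against 0.91, 0.23, 1.59, −0.54 and 0.71 as deposited. Leaving out ribosomal and transfer RNA loci was not run, since the notes give no member that class. No paired analysis was possible because the table has 1 column per group, so no library could be left out either. Depth limits the low loci most, as the counting intervals show.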
